A study of Mus musculus with 6 samples.

Results

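The Gimap genes encode the GTPases of immunity-associated proteins, a family whose mouse members lie side by side on chromosome 6. The 8 genes described here, Gimap1, Gimap3, Gimap4, Gimap5, Gimap6, Gimap7, Gimap8 and Gimap9, were taken by symbol and position from the 25759 gene identifiers of the deposited table. The family was selected on the FPKM difference between the groups below, so that difference is given as a description, and the calls that the fit over all genes made on members are counted but not read as support. RNA-seq was made from aTreg, the adaptive Treg cells that arise when CD4 T cells are activated with TGF-beta and that carry the transcription factor Foxp3. There were 3 libraries of BMPR1a-deficient aTreg from BMPR/CD4cre mice, where Cre recombinase under Cd4 control acts on the gene of BMPR1a (a receptor of bone morphogenetic proteins), and 3 libraries of wild type (WT) aTreg from normal B6 mice. All mice were C57BL/6 of 8 to 12 weeks and carried the Foxp3GFP reporter. Pooled cells of lymph nodes and spleen received concanavalin A, a mitogen of T cells, at 2 µg/ml together with IL-2 at 10 ng/ml and TGF-beta at 3 ng/ml. After 3 days, cells positive for CD4 and Foxp3GFP were sorted. Cre under Cd4 control acts from the thymus onward and in CD8 T cells too, so it is not limited to cells that carry Foxp3. Treg present before the culture would pass the same sort.

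GIMAP proteins share a GTP-binding domain and are found mainly in lymphocytes, where several sit on membranes of lysosomes, mitochondria, the Golgi or lipid droplets. They are known for keeping resting T cells alive: loss of Gimap5 causes lymphopenia in rats and mice, and loss of Gimap1 removes mature T and B cells in mice. T cells take their Gimap transcripts down on activation, and endothelial cells, B cells and NK cells also carry members of the family.

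Values are FPKM, fragments per kilobase of transcript scaled to the mapped fragments of the library, without counts. Judged by the most common low value of FPKM times length, taken to stand for 1 fragment, the libraries held about 33500000 to 42200000 fragments each. At that depth the lowest value of any member, Gimap7 in BMPR1a-deficient replicate 1, stood for about 1350 fragments, a counting error of about 2.72%, so counting error is small beside the spread between libraries. Nothing in the labels ties a library to its own animal or culture, so a p-value reflects the spread among these libraries alone, and that spread may be technical. Bmpr1a was at 0.439, 0.72 and 0.691 FPKM in BMPR1a-deficient aTreg, against 1.39, 2.34 and 1.31 FPKM in WT aTreg, with no overlap (limma adjusted p = 0.183). Bmpr1a passed the filter of a mean of at least 1 FPKM through its WT level alone, so nothing is read from that p-value. Its log2 fold change was -0.71 on log2(FPKM + 1), and -1.29 with 0.1 added in place of 1. The defining genes Cd4, Cd3e and Foxp3 were present in every library, Cd4 at 349 to 436 FPKM in BMPR1a-deficient and 329 to 359 FPKM in WT aTreg. Foxp3 was at 51.3 to 96.9 FPKM in BMPR1a-deficient and 49.4 to 62.3 FPKM in WT aTreg, with overlap. BMPR1a-deficient replicate 1 stood apart: the summed FPKM of 13 mitochondrially encoded genes was 5335 there, 10.3% of the WT mean, against 44660 and 44710 in the other BMPR1a-deficient libraries and 50440 to 53790 in WT. The value without that library is given beside some results, and a value given alone may also depend on it.

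The family resemblance is seen in the P-loop, the stretch of the GTP-binding domain that holds the phosphates of the nucleotide. It was found in each coding sequence as a glycine codon, 4 codons of any kind, a glycine codon, a lysine codon and a serine or threonine codon. The 24 bases are shown 5′ to 3′ on the coding strand, from the GENCODE transcripts of GRCm38, with the codons fixed by the pattern in capitals. They are shown as a view of how near the members are to each other. How well reads can be told apart depends on longer shared runs, which are given below.
Gimap3: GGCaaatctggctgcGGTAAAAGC
Gimap5: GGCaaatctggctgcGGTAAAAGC
Gimap1: GGCaggactgggaccGGCAAGAGT
Gimap4: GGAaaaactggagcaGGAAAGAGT
Gimap6: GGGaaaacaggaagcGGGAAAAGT
Gimap7: GGGaaaacaggaagtGGAAAGAGC
Gimap9: GGGaagactggaaatGGGAAGAGT
Gimap8, copy 1: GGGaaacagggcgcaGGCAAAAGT
Gimap8, copy 2: GGGaagcgtggtgttGGGAAAAGT
Gimap8, copy 3: GGAaggagtggggctGGAAAGAGT
Gimap8 held the pattern 3 times in a coding sequence of 2064 bases, and each other member held it 1 time in 873 to 984 bases. Gimap3 (chr6:48765887-48765910, minus strand) and Gimap5 (chr6:48752594-48752617, plus strand) were identical over this stretch, and the other copies differed from Gimap5 at 7 to 12 of the 24 bases.

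Over the aligned coding sequence Gimap3 and Gimap5 were 90.7% identical, whereas the other pairs that do not involve the longer Gimap8 lay between 57.9% and 68.8%. Of all distinct runs of 50 bases in its transcripts, Gimap3 shared 7.5% with Gimap5, and Gimap5 shared 4.5% with Gimap3. Because Gimap3 stands at a higher level, the 190 shared runs carried at that level would amount to 21.3% of the Gimap5 signal in BMPR1a-deficient aTreg and 22.8% in WT aTreg, if all runs were covered alike. Those shares count 4195 runs pooled over all Gimap5 transcripts, though the longest of them has 2328 bases. Over a single transcript the shares could be larger. How the deposited values divided such reads is not given in the sources used here, so the level of Gimap5 is uncertain to that extent or more. Gimap4, Gimap8 and Gimap9 shared none with any other gene. Gimap1 shared 32.4% with the opposite strand of Gimap1os, a noncoding RNA gene that overlaps it on the other strand. Whether the libraries kept strand is not given in the sources used here, so reads of Gimap1 and Gimap1os cannot be told apart over that overlap. Gm28053, annotated as a transcript that joins exons from Gimap7 to Gimap5, shares 1.4% of the runs of Gimap7, 4.8% of Gimap1 and 2.5% of Gimap5.

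For 6 of the 8 members all BMPR1a-deficient values lay below all WT values, and for Gimap1 and Gimap9 the groups overlapped. Gimap3, Gimap5, Gimap6 and Gimap7 were at 48.1% to 54.0% of their WT means, and Gimap4 and Gimap8 at 68.7% and 73.5%. The summed FPKM of the 8 genes was 1449, 1565 and 1546 in BMPR1a-deficient aTreg, against 2253, 2345 and 2457 in WT aTreg. The BMPR1a-deficient sum was thus 64.7% of the WT sum, and 66.2% without replicate 1. In sorted bulk samples fewer cells that carry a transcript and less transcript per cell cannot be told apart. All 8 members passed the filter of a mean of at least 1 FPKM, and none passed it through 1 group alone.

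**Figure D1:**
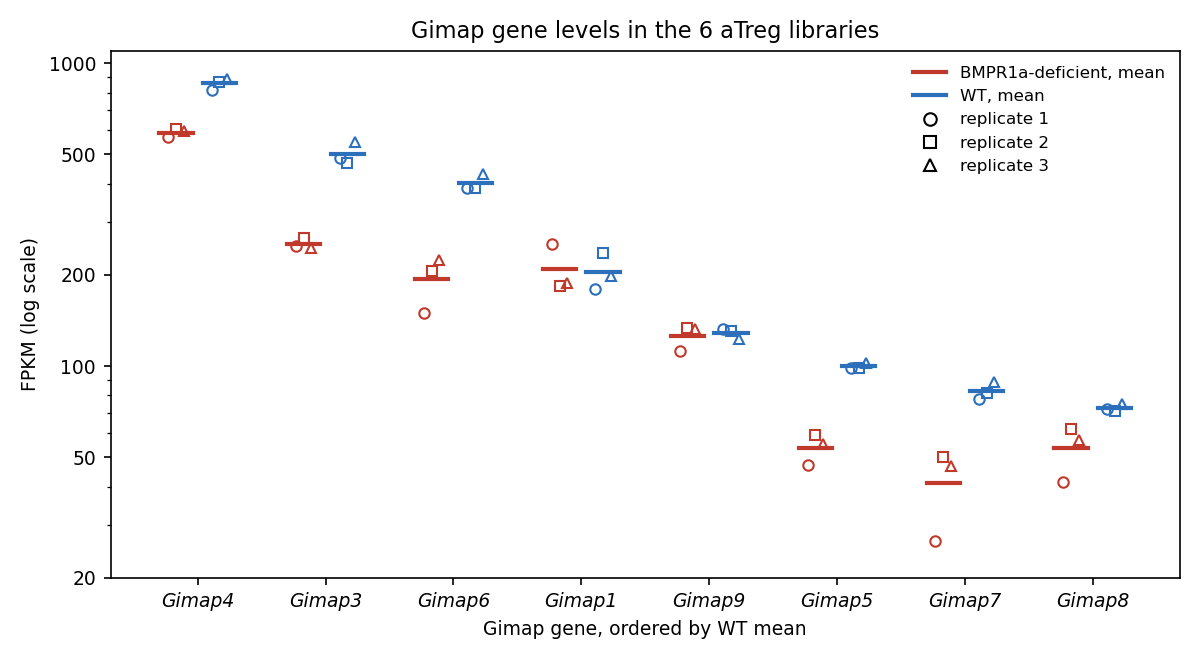
FPKM of the 8 Gimap genes on a log axis in each library, ordered by WT mean; symbols are replicates and bars are group means, with BMPR1a-deficient left of WT for each gene. The groups are apart for Gimap3 to Gimap8 and overlap for Gimap1 and Gimap9.

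The groups did not overlap, with BMPR1a-deficient lower, for 6 of 8 members, and the same was true of 10.4% of the 13413 genes tested. They did not overlap, with BMPR1a-deficient higher, for 0 members and 15.9% of tested genes, which makes 26.3% in either direction. Without BMPR1a-deficient replicate 1 the shares of tested genes were 13.8% on the lower side and 28.1% on the higher side, over 2 libraries. In limma on log2(FPKM + 1) over those genes 2 members, Gimap3 and Gimap5, passed an adjusted p of 0.05 on the lower side, as did 0.321% of all genes, and 0 members passed on the higher side, as did 0.746%. Since the members were chosen on this contrast, nothing is read from these counts, which also shifted to 4 without BMPR1a-deficient replicate 1 and to 0 without any other single library. The log2 fold changes on that scale, BMPR1a-deficient minus WT, ran from -1.07 to 0.02 with a median of -0.71, while the median over all tested genes was 0.04. Of the members 7 were negative, against 44.5% of all tested genes. Over all genes 100 were called higher and 43 lower, so 69.9% of calls were higher, a share of 58.6% with upper-quartile scaling and 55.7% with quantile normalization.

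Gimap5, a lysosomal membrane protein needed for the survival of naive T cells, was at 47.0, 59.3 and 55.3 FPKM in BMPR1a-deficient aTreg, against 98.3, 98.3 and 102.8 FPKM in WT aTreg. The WT libraries lay close together and the highest BMPR1a-deficient library was well below the lowest of them. The log2 fold change was -0.88 (SE 0.116). Gimap5 (ENSMUSG00000043505) spans chr6:48746197-48754210 on the plus strand in GRCm38, with 2328 bases in its longest transcript.

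Gimap3, the close paralog of Gimap5 in mice whose protein sits on the outer mitochondrial membrane, was at 248.9, 265 and 246 FPKM in BMPR1a-deficient aTreg, against 485, 470.2 and 550.5 FPKM in WT aTreg. Its BMPR1a-deficient values were the closest together of any member relative to their mean except those of Gimap4, and replicate 1 did not stand apart from the others. The log2 fold change was -0.98 (SE 0.118). Gimap3 (ENSMUSG00000039264) lies at chr6:48764464-48770851 on the minus strand, and its level was 4.70 times that of Gimap5 in BMPR1a-deficient and 5.03 times in WT aTreg.

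Gimap4, known for promoting the death of T cells and for binding Bax, was the highest member in every library. It was at 569.6, 605.5 and 596 FPKM in BMPR1a-deficient aTreg, against 819 and 870.1 and 887 FPKM in WT aTreg. The groups stood far apart relative to their spread, 590.3 ± 18.6 against 859 ± 35.2 FPKM (SD, n = 3 each), yet the log2 fold change was smaller than that of Gimap3, at -0.54 (SE 0.118). With quantile normalization it was -0.33. Gimap4 lies at chr6:48684549-48692060 on the plus strand.

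Gimap6, which binds the autophagy protein GABARAPL2, had the most negative log2 fold change of the family, -1.07 (SE 0.178). It was at 150.2, 205 and 225 FPKM in BMPR1a-deficient aTreg, against 387, 387 and 432 FPKM in WT aTreg. Replicate 1 was the lowest BMPR1a-deficient library, and without it the log2 fold change was -0.90. Gimap6 (ENSMUSG00000047867) lies at chr6:48701582-48708225 on the minus strand.

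Gimap7, a GTPase of lipid droplets that forms dimers to split GTP, was at 26.5, 50.1 and 46.8 FPKM in BMPR1a-deficient aTreg, against 78.2, 81.4 and 88.3 FPKM in WT aTreg. It had the widest spread of any member among the BMPR1a-deficient libraries, a coefficient of variation of 31.1%, with replicate 1 well below the other two. Its log2 fold change was -1.04 (SE 0.248), and -0.76 without that library. Gimap7 (ENSMUSG00000043931) lies at chr6:48718621-48724636 on the plus strand.

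Gimap8, the member with 3 GTP-binding domains, was at 41.5, 62.0 and 57.0 FPKM in BMPR1a-deficient aTreg, against 72.3, 71.2 and 74.9 FPKM in WT aTreg. The groups did not overlap, and BMPR1a-deficient replicate 1 was the lowest library. The log2 fold change was -0.46 (SE 0.163), the smallest of the 6 lower members, and -0.29 without BMPR1a-deficient replicate 1. Gimap8 (ENSMUSG00000064262) opens the cluster at chr6:48647234-48660875 on the plus strand.

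Gimap9 was at 111.9, 133.8 and 132 FPKM in BMPR1a-deficient aTreg, against 132, 130.5 and 123 FPKM in WT aTreg. The ranges overlapped, and the highest and the lowest of the 6 values were both BMPR1a-deficient. The log2 fold change was -0.03 (SE 0.114), and 0.05 without BMPR1a-deficient replicate 1. Gimap9 (ENSMUSG00000051124) lies between Gimap8 and Gimap4, at chr6:48676129-48679114 on the plus strand.

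Gimap1, which peripheral T and B cells need to survive, was at 253, 185 and 188 FPKM in BMPR1a-deficient aTreg, against 180.3, 236 and 198 FPKM in WT aTreg. Here replicate 1 was the highest of all 6 libraries, while it was the lowest of its group for 6 other members. Its log2 fold change of 0.02 (SE 0.178) became negative without that library (-0.13) or without WT replicate 1 (-0.065), so the sign is not settled. Gimap1 (ENSMUSG00000090019) lies at chr6:48739054-48743795 on the plus strand, between Gimap7 and Gimap5.

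BMPR1a-deficient replicate 1 was the lowest of its group for 6 of the 8 members, and it was also the lowest for 55.6% of all tested genes. The median over the members of the difference from the WT mean, in log2(FPKM + 1), was -0.90 in replicate 1 and -0.61 and -0.67 in replicates 2 and 3. In the WT libraries it was -0.05, -0.02 and 0.05. All 3 BMPR1a-deficient libraries therefore lay below all 3 WT libraries, the nearest being replicate 2. The coefficient of variation had a median of 15.1% over the 8 members in BMPR1a-deficient aTreg and 5.18% in WT aTreg. Without BMPR1a-deficient replicate 1 the first of these was 4.90%, over 2 libraries, so the wider spread rests on that library.

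The order of the levels within the family was compared in FPKM, which is scaled to length. In BMPR1a-deficient aTreg it ran Gimap4, Gimap3, Gimap1, Gimap6, Gimap9, Gimap5, Gimap8 and Gimap7, and in WT aTreg Gimap4, Gimap3, Gimap6, Gimap1, Gimap9, Gimap5, Gimap7 and Gimap8. Of the 7 pairs of neighbours in that order, the ranges over replicates were apart for 3 in BMPR1a-deficient aTreg and for 7 in WT aTreg. These ranges leave out the uncertainty from shared reads described above, so the places of Gimap5 and Gimap1 are less sure than they appear. The BMPR1a-deficient neighbours that overlapped were Gimap3 with Gimap1, Gimap1 with Gimap6, Gimap5 with Gimap8, and Gimap8 with Gimap7. These overlaps rest largely on replicate 1: without it 6 of the 7 neighbour pairs were apart, over 2 libraries, Gimap6 stood above Gimap1 as in WT, and Gimap8 with Gimap5 alone overlapped. Only 2.03% of tested genes had a higher mean FPKM than Gimap4 in BMPR1a-deficient aTreg and 1.80% in WT aTreg, and even Gimap7 in BMPR1a-deficient aTreg was exceeded by only 21.5%.

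The make-up of the summed signal differed as the members differed. Gimap1 took 13.8 ± 3.18% of the sum in BMPR1a-deficient aTreg and 8.70 ± 1.17% in WT aTreg, and Gimap9 took 8.27 ± 0.479% and 5.48 ± 0.437% (SD, n = 3 each). Without BMPR1a-deficient replicate 1, where Gimap1 took 17.5%, the BMPR1a-deficient mean share of Gimap1 was 12.0%. Gimap3 took 16.7 ± 0.663% in BMPR1a-deficient aTreg and 21.3 ± 1.19% in WT aTreg, and Gimap6 took 12.7 ± 2.12% and 17.1 ± 0.55%. The share of Gimap4 was 38.8 ± 0.411% in BMPR1a-deficient aTreg and 36.5 ± 0.521% in WT aTreg. A share can differ because other members do, so these values describe the balance of the family only.

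**Figure D2:**
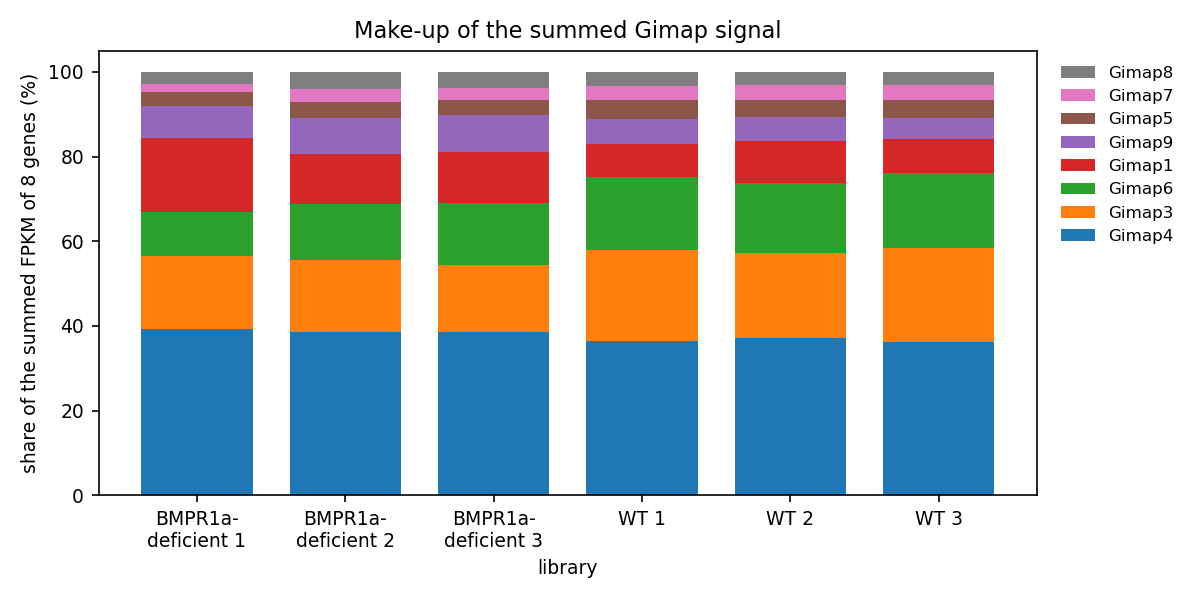
Share of the summed FPKM of the 8 Gimap genes taken by each gene (percent, stacked bars) in each library, with BMPR1a-deficient libraries left of WT. Gimap1 and Gimap9 take larger and Gimap3 and Gimap6 smaller shares in the BMPR1a-deficient libraries, while Gimap4 is the largest in each library at 36.1% to 39.3%.

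The cluster spans 123.6 kb, chr6:48647234-48770851, and the members with overlapping groups lie among the lower ones: Gimap9 is the second gene and Gimap1 the sixth. The noncoding gene Gimap1os (ENSMUSG00000044867, chr6:48738346-48741444, minus strand), which is not one of the 8, was at 5.42, 12.5 and 6.14 FPKM in BMPR1a-deficient aTreg, against 17.0, 17.5 and 18.0 FPKM in WT aTreg. Its groups did not overlap and its log2 fold change was -1.12 (SE 0.283, limma adjusted p = 0.157). It shares bases with Gimap1 on the other strand but did not share its pattern of values over the libraries.

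Within 500 kb on either side the table held 22 other genes, of which 14 passed the filter. Their median log2 fold change was -0.06, and 1 was called higher and 0 lower, beside the 0.746% and 0.321% of all tested genes. The called gene was Atp6v0e2, which encodes a subunit of the vacuolar proton pump and ends 105.4 kb before Gimap8. It was at 3.66, 4.05 and 4.54 FPKM in BMPR1a-deficient aTreg, against 0.0734, 0.054 and 0.0146 FPKM in WT aTreg. It passed the filter through its BMPR1a-deficient level alone, so it had to differ and its call is no support. Its log2 fold change of 2.28 (SE 0.13) is set by the pseudocount, and was 4.84 with a pseudocount of 0.1 and 0.85 with a pseudocount of 5. The nearest tested genes were Zfp775 before the cluster, with a log2 fold change of -0.21 (SE 0.143), and Tmem176b, 63.0 kb after it, with -0.11 (SE 0.188). Both overlapped between the groups. Of the 14 tested flanking genes 1, the pseudogene Gm10243, had groups that did not overlap with BMPR1a-deficient lower, beside 10.4% of all tested genes. On the higher side 2 did not overlap, Atp6v0e2 and Igf2bp3, beside 15.9% of all tested genes. Gm10243 and Igf2bp3 are named after their values were seen.

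**Figure D3:**
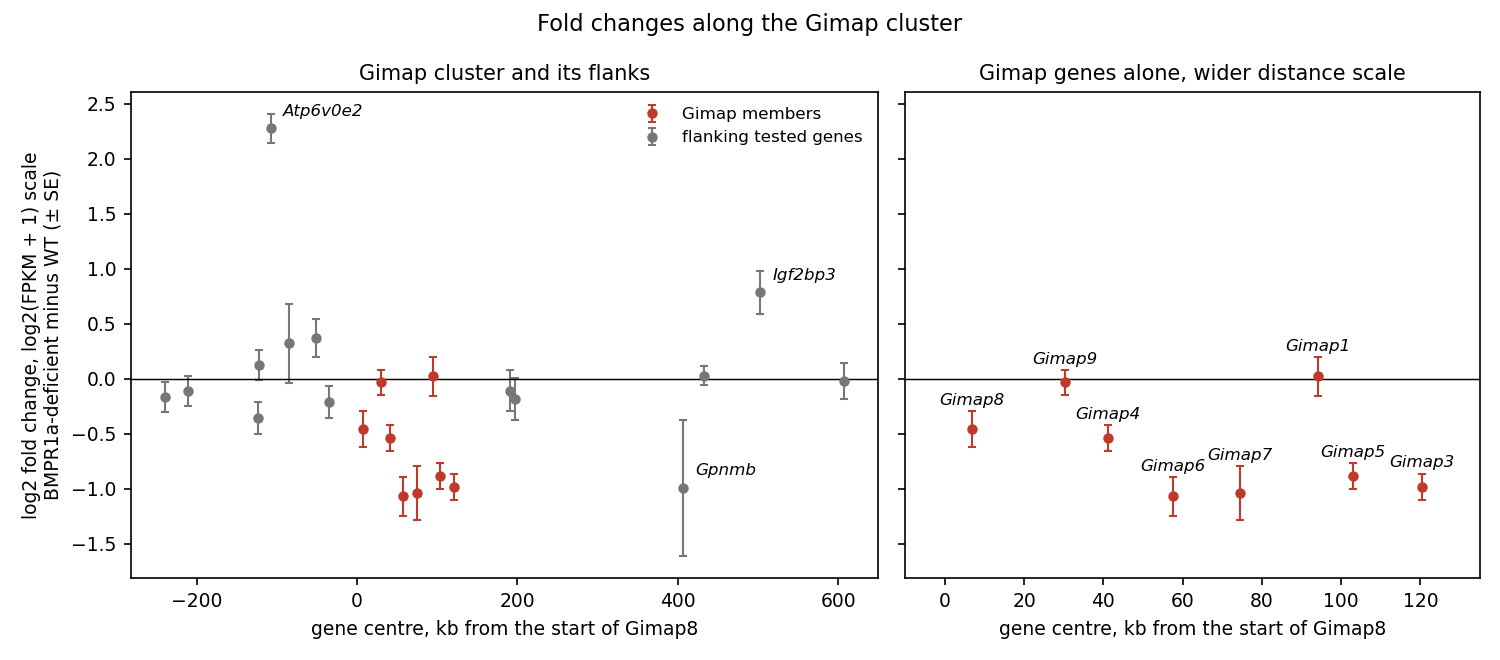
Log2 fold change (BMPR1a-deficient minus WT, log2(FPKM + 1) scale, ± SE) of each Gimap gene and each flanking tested gene, against the distance of its centre in kb from the start of Gimap8; the right panel repeats the Gimap genes alone. Gimap3 to Gimap8 lie between -0.46 and -1.07, Gimap1 and Gimap9 near 0, and Atp6v0e2 at 2.28.

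The promoters of the 8 genes were searched for short letters that lymphocyte transcription factors are known to bind, in the 250 bases before each RefSeq start in GRCm38.p6, on both strands. The table held 9 such starts, 2 of them for Gimap8 with windows that overlap. The KLF box CACCC was in 6 of the 9, and in 52.0% of all 32851 promoters of this length. The RUNX letters TGTGGT were in 3 (Gimap1, Gimap4 and Gimap7), against 14.0% of all promoters, and the FOXO letters TGTTTAC in 1 (Gimap3), against 3.2%. The short SMAD site CAGAC, searched because SMAD proteins act below BMP receptors, was in 4 (of Gimap3, Gimap8 and Gimap9), against 42.2%. The ETS letters CCGGAA, the TCF/LEF letters CTTTGA and the palindrome GTCTAGAC were in 0 of the 9, against 12.0%, 13.8% and 0.2% of all promoters. Only exact letters were counted, so other forms of these sites may be present. No motif was in all 6 lower members. Promoters of 2 lower members and of Gimap1 are shown, from RefSeq, each ending at the base before the start, with matches to the KLF, RUNX and FOXO letters in capitals.
Gimap3, chr6:48770852-48771101, minus strand: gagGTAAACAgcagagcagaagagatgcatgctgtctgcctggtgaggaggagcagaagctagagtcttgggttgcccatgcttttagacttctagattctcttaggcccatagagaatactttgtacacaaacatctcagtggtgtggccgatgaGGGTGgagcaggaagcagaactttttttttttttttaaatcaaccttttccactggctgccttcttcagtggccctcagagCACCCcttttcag
Gimap6, chr6:48708245-48708494, minus strand: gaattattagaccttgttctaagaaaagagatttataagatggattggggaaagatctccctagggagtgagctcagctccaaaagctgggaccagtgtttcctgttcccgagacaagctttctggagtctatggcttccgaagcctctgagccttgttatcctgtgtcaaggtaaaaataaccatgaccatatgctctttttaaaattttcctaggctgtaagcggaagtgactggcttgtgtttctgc
Gimap1, chr6:48738797-48739046, plus strand: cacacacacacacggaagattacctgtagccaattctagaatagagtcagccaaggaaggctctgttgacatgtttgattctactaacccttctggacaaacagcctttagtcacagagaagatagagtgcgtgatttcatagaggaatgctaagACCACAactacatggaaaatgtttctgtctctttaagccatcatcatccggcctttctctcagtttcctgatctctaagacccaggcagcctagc
Gimap3 holds the FOXO letters near its far end and the KLF box at 2 places, Gimap1 holds the RUNX letters at 1 place, and Gimap6 holds none of the 3.

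Genes whose products are reported to work with GIMAP proteins were examined next. This list holds BCL2 family members, caspase-3, autophagy proteins of the GABARAP and LC3 families, GSK3 kinases, beta-catenin and HSC70. Of its 15 tested genes 0 were called in either direction, beside 1.07% of all tested genes (limma), 5 had a negative fold change and the median was 0.12. The groups did not overlap for 0 genes on the lower side and for 2, Bcl2 and Bcl2l1, on the higher side, beside 10.4% and 15.9% of all tested genes. Without BMPR1a-deficient replicate 1, 2 genes had a negative fold change and 5 did not overlap on the higher side, beside 28.1% of tested genes. The 2 genes of the list with the highest mean over all 6 libraries were Hspa8, which encodes HSC70, and Gabarap. Hspa8 was at 1349 ± 184 FPKM in BMPR1a-deficient and 1184 ± 80.6 FPKM in WT aTreg, and Gabarap at 179 ± 31.7 and 164 ± 11.7 FPKM (SD, n = 3 each). Chosen after their values were seen, Bcl2l1, which encodes the survival protein BCL-XL, was at 32.4, 30.9 and 31.7 FPKM in BMPR1a-deficient aTreg, against 17.3, 23.5 and 18.0 FPKM in WT aTreg (limma adjusted p = 0.094). Gabarapl2, the partner of Gimap6 and also picked after its values were seen, was at 66.5, 88.7 and 87.0 FPKM in BMPR1a-deficient aTreg, against 93.7, 76.7 and 82.6 FPKM in WT aTreg, with overlap. Of the septins, GTPases of a related fold, 8 of 12 in the table were tested, and 0 were called, beside 1.07% of all tested genes (limma). Their median was -0.01. The groups did not overlap for 1 septin on the lower side and 2 on the higher side, beside 10.4% and 15.9% of all tested genes. Sept1 was at 594, 354 and 327 FPKM in BMPR1a-deficient aTreg, against 405, 491 and 404 FPKM in WT aTreg. Sept7 was at 139 ± 20.5 FPKM in BMPR1a-deficient and 156 ± 20.6 FPKM in WT aTreg (SD, n = 3 each).

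Genes of resting T cells, among which Gimap genes are usually counted, were examined as well. Of 18 tested, 1 was called lower and 0 higher, beside 0.321% and 0.746% of all tested genes. Their median log2 fold change was -0.50, 13 were negative, and the groups did not overlap, with BMPR1a-deficient lower, for 9, beside 10.4% of all genes, and for 1 (Slfn2) with BMPR1a-deficient higher, beside 15.9%. Without BMPR1a-deficient replicate 1, which was the lowest of its group for 15 of the 18, the median was -0.26. The called gene was Dapl1, which fell to 69.0, 76.9 and 88.0 FPKM in BMPR1a-deficient aTreg, against 194, 206 and 158 FPKM in WT aTreg (log2 fold change -1.24, SE 0.153, limma adjusted p = 0.0308). With single libraries left out in turn, it was called in 1 of 6 fits, that without BMPR1a-deficient replicate 1. Tcf7, S1pr1 and Klf2 are given next, chosen after their values were seen, the first 2 as genes in which replicate 1 lay far below the other BMPR1a-deficient libraries. Tcf7, a transcription factor of naive T cells, was at 170.3, 374 and 361 FPKM in BMPR1a-deficient aTreg, against 512, 499 and 584 FPKM in WT aTreg. The log2 fold change of Tcf7 was -0.90, and -0.53 without BMPR1a-deficient replicate 1. S1pr1, the receptor by which T cells leave lymph nodes, was at 44.6, 96.9 and 91.4 FPKM in BMPR1a-deficient aTreg, against 116, 121 and 137 FPKM in WT aTreg. The log2 fold change of S1pr1 was -0.75, and -0.40 without BMPR1a-deficient replicate 1. Klf2, the transcription factor that drives S1pr1, was at 90.3, 88.0 and 79.1 FPKM in BMPR1a-deficient aTreg, against 105.8, 77.3 and 88.1 FPKM in WT aTreg, with overlap.

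**Figure D4:**
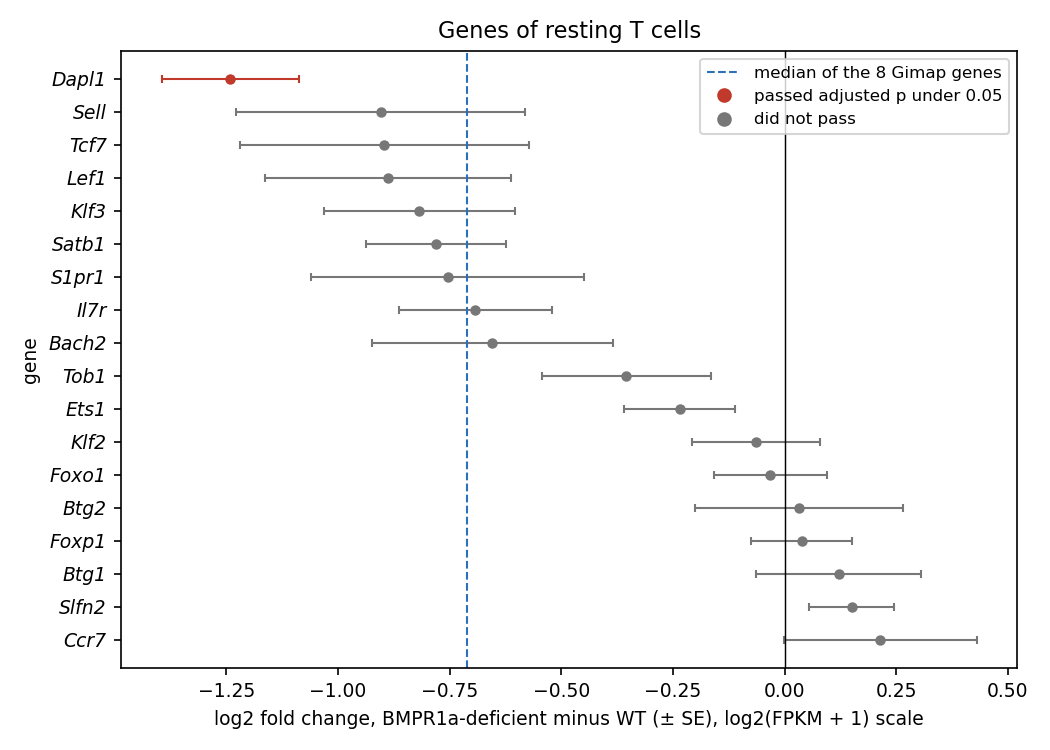
Log2 fold change (BMPR1a-deficient minus WT, log2(FPKM + 1) scale, ± SE) of the 18 genes of resting T cells, red where limma's adjusted p was under 0.05; the dashed line marks the median of the 8 Gimap genes, -0.71. Dapl1 alone passed, 13 genes lie below 0, and Klf2, Foxo1 and Foxp1 lie near 0.

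The 5 tested genes closest to the mean Gimap profile, by mean absolute difference of centred log2(FPKM + 1) over the 6 libraries, were Mtfmt (0.036), Adora2a (0.0397), Npc2 (0.0423), Elovl6 (0.0476) and Icam2 (0.0499). Adora2a, which encodes an adenosine receptor, was at 4.49, 5.62 and 5.26 FPKM in BMPR1a-deficient aTreg, against 7.66, 8.98 and 9.03 FPKM in WT aTreg. Icam2, an adhesion molecule of lymphocytes and endothelium, was at 27.6, 36.0 and 32.7 FPKM in BMPR1a-deficient aTreg, against 48.9, 54.3 and 54.3 FPKM in WT aTreg. Being chosen for this likeness, they are a description only.

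Markers of other cells that carry Gimap transcripts were measured beside these results. Of the NK cell markers all 6 were under 1 FPKM in every library. Of 5 endothelial markers measured, 4 were also under 1 FPKM, and Pecam1, which T cells share, was at 39.8 to 52.7 FPKM in BMPR1a-deficient and 42.8 to 57.1 FPKM in WT aTreg. The summed FPKM of 8 B cell markers was 41.8 to 57.2 in BMPR1a-deficient and 29.4 to 59.1 in WT aTreg, none at 0. That of 8 myeloid markers was 17.8 to 169.5 in BMPR1a-deficient and 25.8 to 134.6 in WT aTreg, and that of Cd8a and Cd8b1 was 37.9 to 68.4 in BMPR1a-deficient and 32.0 to 41.8 in WT aTreg. Cd8a was at 13.8, 17.2 and 29.1 FPKM in BMPR1a-deficient and 11.7, 9.56 and 8.80 FPKM in WT aTreg, while Cd8b1 overlapped. Of the tested markers, Cd8a and the B cell gene Blk did not overlap with BMPR1a-deficient higher, beside 15.9% of all tested genes. Cd3g and Ctla4 did not overlap with BMPR1a-deficient lower, beside 10.4%. Of the NK cell markers, Klrb1c was higher and Klre1 lower without overlap, both under 1 FPKM. These genes are named after their values were seen. The summed FPKM of 8 T cell and Treg genes was 1916, 2077 and 2029 in BMPR1a-deficient and 2171, 2116 and 2110 in WT aTreg, with no overlap. That sum mixes directions. Mean levels of Cd4, Foxp3 and Il2ra were at 110.3%, 131.5% and 146.7% of WT. Those of Cd3e, Cd3d, Cd3g, Cd5 and Ctla4 were at 98.7%, 92.7%, 90.7%, 85.8% and 67.0%. Of these markers, 8 T cell and Treg, 2 CD8 T cell, 7 B cell, 7 myeloid, 1 endothelial and 0 NK cell genes passed the filter and were tested, and 0 were called in limma, beside 1.07% of all tested genes. Their part in the Gimap values was not tested.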

How the data were processed

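The authors deposited FPKM per gene and library. TopHat2, Cufflinks and Cuffdiff with GRCm38.p4 are named per the submitters' processing notes; the sources used here do not give their versions, settings, annotation, strand handling or any scaling between libraries. Symbols and positions came from GENCODE M21 (GRCm38), which matched 24876 of 25759 identifiers (96.6%).

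The filter kept 13413 genes whose FPKM averaged 1 or more. On log2(FPKM + 1), a scale that understates fold changes of low genes, group was the factor in limma 3.58.1 (R 4.3.3), using eBayes with its trend; tests were two-sided, with Benjamini-Hochberg adjusted p under 0.05 as the call. The fit was also run on simulated data with the same spread in both groups. That simulation held no outlying library, and nothing is read from it here. Depth was estimated from 3536 genes with a single transcript of 1000 to 6000 bases, assuming fragments of 200 bases, and is approximate.

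The members and gene lists were chosen with earlier results of these data known. Named genes are the members, Bmpr1a, Foxp3, Cd4 and Cd3e, called genes of each list, otherwise its 2 highest, and the 5 most alike; others are marked. The alternatives varied the pseudocount, filter, scaling, trend, block, biotypes and libraries.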

Additional observations from a re-analysis of the deposited data

How the results depend on the processing

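The median log2 fold change of the 8 members was negative under all 15 alternatives, from -0.764 to -0.636, and 118 of 120 single values of members moved by less than the spread between replicates. The 2 that moved further were Gimap3 (-0.81) and Gimap4 (-0.33) with quantile normalization. Changing only the filter, trend, block or biotypes cannot alter a member's fold change, and the median stayed at -0.712 there. The values from those alternatives were fixed in advance and are no sign of stability, though they are counted among the 120. At this group size, leaving out a library shifts its group mean by less than the SD of the group. The values with a library left out were therefore also bound to stay within the spread. Only those with another pseudocount or scaling were free to move further. Members called lower numbered 1 with quantile normalization, 0 with a replicate block and 0 to 4 when a library was left out, given as a description since the family was selected on this contrast. The genes called over all tested genes were 5 higher and 5 lower with the block, 202 and 94 among protein-coding genes only, 15 to 150 higher and 7 to 81 lower with a library left out, 70 lower with quantile normalization and 27 lower at a mean FPKM of at least 5. Under the block 0 resting T cell genes and 0 flanking genes were called. Flanking genes called were also 0 at a mean FPKM of at least 5, where Atp6v0e2 is not tested. Among protein-coding genes only, 2 resting T cell genes were called lower and 1 partner gene higher. Resting T cell genes called lower were 0 to 2 with a library left out. With a library left out the log2 fold change of Cd3e ranged from -0.294 to 0.268, above 0 without BMPR1a-deficient replicate 1, beside -0.10 in full. The cause of these shifts was not tested. Fits with fewer libraries have less power, other things equal, while the 150 higher and 81 lower calls came without BMPR1a-deficient replicate 1. Over genes, deviations from the group means correlated at r of 0.01, 0.064 and 0.052 between libraries with the same replicate number. Between libraries with different numbers r ran from -0.093 to 0.041. The labels do not say whether equal numbers mark a pairing, and these correlations cannot settle it.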
